A study of Mus musculus with 12 samples.

Results

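The genes described here encode 10 chains of receptors through which blood-forming cells sense hematopoietic cytokines, namely Csf2ra, Il3ra, Csf2rb, Csf2rb2, Csf3r, Il6ra, Il6st, Il1rl1, Il7r and Ifngr1. They were chosen by name, and each stood on a single row among the 31272 gene names of the tables. RNA was sequenced from bone marrow cells of wild-type mice that had been gated as hematopoietic stem cells (HSCs), in 4 groups of 3 libraries. Ctrl mice were not irradiated, IR mice received ionizing radiation, and the irradiated groups Ab_IR and L_IR carry a further treatment whose labels, Ab and L, are not spelled out and are used as given. Cells were collected 3 days after irradiation. The animals' age, and whether a library is 1 mouse or a pool, were not given in the sources used here, so p-values measure the spread between these libraries, which may be technical. According to the study's methods, HSCs were gated by absent lineage markers, Sca-1, c-Kit and absent Flt3 and CD34.

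A cytokine receptor usually pairs a chain that recognises the ligand with a chain that signals. Csf2ra, Il3ra and Il5ra are the specific chains for GM-CSF, IL-3 and IL-5, and they share the signalling chain Csf2rb, while mouse cells also have Csf2rb2, a close relative that serves IL-3 alone. Csf3r signals for G-CSF as a pair of identical chains, Il6ra binds IL-6 and signals through the shared chain Il6st (gp130), Il1rl1 (ST2) binds IL-33, Il7r binds IL-7 and, with Crlf2, TSLP, and Ifngr1 binds interferon gamma. Most of these chains carry Janus kinases that phosphorylate STAT proteins, whereas Il1rl1 signals through Myd88. GM-CSF and G-CSF drive granulocyte and macrophage production, and IL-3, IL-5 and IL-33 act on mast cells, basophils and eosinophils.

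Values are FPKM, that is, fragments per kilobase of transcript scaled to library size, so levels can be compared between genes. They carry no read counts, and the depth behind them is unknown. In Ctrl replicate 1 an exact 0 was given for 44.1% of the rows, and in the remaining libraries for 24.7% to 27.3%. Nppa, an atrial hormone gene, had 51.2 to 63.9 FPKM in the IR libraries and Ctrl replicates 2 and 3, and 0 to 0.26 FPKM elsewhere. Without Ctrl replicate 1, IR and Ctrl lie on the same side of this split. Between IR and Ab_IR or L_IR, the split and the groups cannot be told apart except through Ctrl replicate 1. The labelled cell type was checked against its markers. Of 12 HSC markers (such as Procr and Gata2), 5 reached 1 FPKM in all 3 Ctrl libraries, with a summed level of 27.1 to 28.9 FPKM in Ctrl and 11.8 to 12.2 in IR, with 26.3 to 27.7 in Ab_IR and 23.7 to 24.9 in L_IR. The largest part of this sum was Gata2, which mast cells and megakaryocytes also use (mean 16.5 FPKM in Ctrl and 5.14 in IR), while Hlf was at 2.04 FPKM in Ctrl and 2.03 in IR, with 1.29 in Ab_IR and 1.27 in L_IR. The sum over 12 neutrophil markers was 9346 to 11302, 14362 to 14660, 10772 to 11315 and 7566 to 7763 FPKM in the same order. Its largest members in Ctrl were Mpo (3143 FPKM) and Elane (2483 FPKM), granule genes of myeloid progenitors and promyelocytes. Of the markers of later neutrophils, Cxcr2 (4.93 FPKM), Mmp8 (9.95 FPKM) and Ly6g (3.88 to 11.1 FPKM) were low there, but others were not. Ngp was at 1102 to 1132 FPKM in Ctrl, S100a9 at 1109 to 1814 and S100a8 at 277 to 838. Camp was at 176 to 321 FPKM in Ctrl, Ltf at 155 to 157 and Retnlg at 101 to 164. The sum of myeloid markers thus far exceeded that of HSC markers, and the cells are called by their sort label. In such bulk RNA, fewer cells of a type and less RNA per cell cannot be told apart.

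The receptor genes lie apart in the genome, except that Csf2rb (chr15:78325752-78353847, + strand) and Csf2rb2 (chr15:78282507-78305721, - strand) are neighbours on opposite strands (GRCm38, GENCODE M21). Of all stretches of 100 bases in their annotated transcripts, 4.63% of those of Csf2rb and 6.82% of those of Csf2rb2 occur in the other gene, so a part of their reads could be split between them. The starts of chains with higher and lower levels in IR are shown as regulatory context, each from 250 bases before to 50 bases after a RefSeq gene start (GRCm38.p6), 5′ to 3′ along the gene. Capitals mark matches, on either strand, to GAGGAA (the core of PU.1 sites), AGATAA (sites of GATA factors), TTCNNNGAA (STAT) and TTGCNNAA (C/EBP), which occur in 28.3%, 11.2%, 8.30% and 10.8% of all 32851 promoters. The windows are chr19:61228369-61228668 (- strand) for Csf2ra, chr15:78305672-78305971 (- strand) for Csf2rb2, chr4:126024409-126024708 (+ strand) for Csf3r, chr14:14346245-14346544 (+ strand) for Il3ra and chr1:40429320-40429619 (+ strand) for the upstream start of Il1rl1. Matches were looked for in 10 promoters of 9 members, and Csf2rb was not among them.
Csf2ra: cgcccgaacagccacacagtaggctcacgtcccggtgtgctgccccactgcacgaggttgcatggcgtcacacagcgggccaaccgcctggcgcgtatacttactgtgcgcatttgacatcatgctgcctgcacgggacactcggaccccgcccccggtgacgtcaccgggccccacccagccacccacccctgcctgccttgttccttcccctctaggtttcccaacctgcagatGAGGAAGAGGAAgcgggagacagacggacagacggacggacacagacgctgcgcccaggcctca
Csf2rb2: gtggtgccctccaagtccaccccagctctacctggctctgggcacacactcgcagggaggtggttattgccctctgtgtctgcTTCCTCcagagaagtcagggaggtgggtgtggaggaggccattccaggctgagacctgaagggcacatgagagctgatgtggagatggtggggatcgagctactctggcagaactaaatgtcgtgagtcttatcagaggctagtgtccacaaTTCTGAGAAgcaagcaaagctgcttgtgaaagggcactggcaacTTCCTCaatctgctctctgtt
Csf3r: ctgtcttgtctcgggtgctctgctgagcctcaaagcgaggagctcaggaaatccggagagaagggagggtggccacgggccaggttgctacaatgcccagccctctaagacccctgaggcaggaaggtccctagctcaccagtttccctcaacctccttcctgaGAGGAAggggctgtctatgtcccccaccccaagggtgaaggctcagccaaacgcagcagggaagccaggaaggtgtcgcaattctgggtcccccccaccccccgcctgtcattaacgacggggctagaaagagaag
Il3ra: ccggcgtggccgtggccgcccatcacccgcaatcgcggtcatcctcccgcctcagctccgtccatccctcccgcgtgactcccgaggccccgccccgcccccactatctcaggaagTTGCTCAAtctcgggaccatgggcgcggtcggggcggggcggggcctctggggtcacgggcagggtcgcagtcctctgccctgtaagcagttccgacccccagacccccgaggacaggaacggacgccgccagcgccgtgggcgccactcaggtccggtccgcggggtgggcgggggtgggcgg
Il1rl1: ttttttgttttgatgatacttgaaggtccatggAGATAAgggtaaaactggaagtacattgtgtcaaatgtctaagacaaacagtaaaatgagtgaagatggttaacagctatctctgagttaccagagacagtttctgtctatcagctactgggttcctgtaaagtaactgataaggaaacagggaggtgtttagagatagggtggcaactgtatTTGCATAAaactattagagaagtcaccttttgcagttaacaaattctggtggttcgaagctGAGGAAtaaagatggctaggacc
The PU.1 core stood in the windows of Csf2ra (2 matches), Csf2rb2 (2), Csf3r (1), Il6ra (1) and the upstream start of Il1rl1 (1). A GATA match was found at both Il1rl1 starts and in Il6ra. The STAT letters occurred in Csf2rb2 and Il7r, and the C/EBP letters in Il3ra, Il7r and the upstream start of Il1rl1. The windows of Il6st and Ifngr1 held none of the 4 motifs. A match is a run of letters and not a measured site.

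The IR libraries held more RNA of the shared GM-CSF and IL-3 signalling chain and of the G-CSF receptor, and less of the IL-33 receptor and of gp130. In IR against Ctrl, 4 chains rose (Csf2rb, Csf3r, Csf2rb2 and Csf2ra) and 4 fell (Il1rl1, Il6st, Il3ra and Ifngr1) at an adjusted p under 0.05 by limma. Of all genes tested, 43.1% passed this test, 17.5% rising and 25.5% falling. Only Csf2rb and Il1rl1 of the 10 were also beyond a log2 fold change of 1, the rule by which a gene is termed called here, and 7.6% of all genes were called. In Ab_IR and L_IR, Csf2rb and Il1rl1 differed from Ctrl by at most 0.31 on the log2 scale, which did not pass the test, although Il1rl1 in L_IR did with all 12 libraries in a fit (adjusted p = 0.0117) and without Ctrl replicate 1 (0.035). The summed level of the 10 chains was 223.7 to 244.2 FPKM in Ctrl and 331.8 to 338.0 in IR, with 225.0 to 234.7 in Ab_IR and 230.8 to 232.1 in L_IR.

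**Figure D1:**
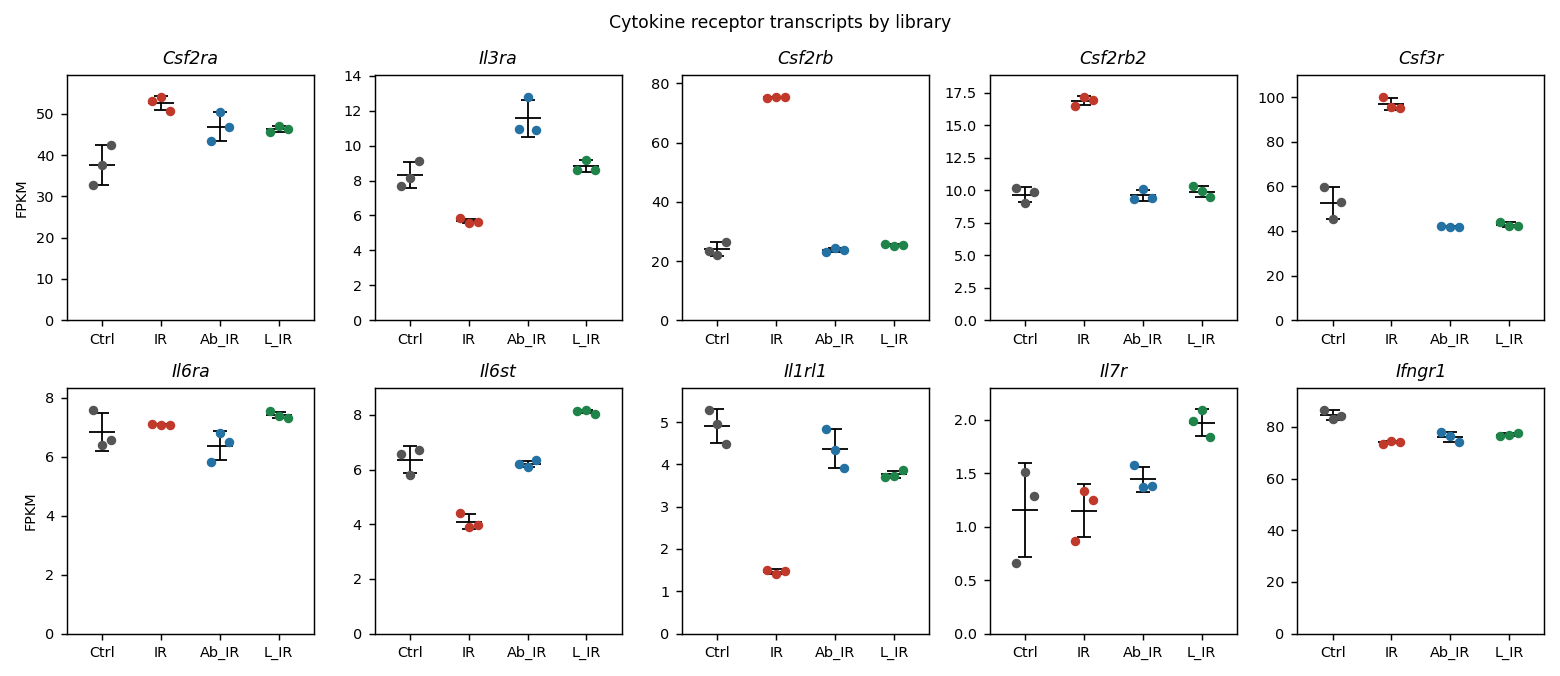
FPKM of the 10 receptor genes (vertical axes from 0, each on its own scale) in the Ctrl, IR, Ab_IR and L_IR groups, with 1 point per library and the mean and SD of 3 libraries as bars. The 3 IR libraries stand above the other 9 for Csf2rb, Csf2rb2, Csf3r and Csf2ra and below them for Il1rl1, Il6st and Il3ra.

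Csf2rb, the signalling chain shared by GM-CSF, IL-3 and IL-5, showed the largest rise of the 10 in IR against Ctrl. It was listed at 23.4, 22.0 and 26.5 FPKM in the Ctrl libraries and at 75.1, 75.4 and 75.4 FPKM in the IR libraries. In Ab_IR it was listed at 23.0, 24.5 and 23.9 FPKM, and in L_IR at 25.7, 25.1 and 25.6 FPKM. The IR libraries thus lay far above the other 9, and Ctrl overlapped with both Ab_IR and L_IR, which did not overlap with each other. The mean was 3.14-fold higher in IR than in Ctrl, a log2 fold change of 1.62 (95% CI 1.43 to 1.80, adjusted p = 3.84e-05). Without Ctrl replicate 1 it was 1.60. Against IR, Csf2rb fell by 1.62 on the log2 scale in Ab_IR (adjusted p = 8.87e-08) and by 1.53 in L_IR (adjusted p = 2.47e-08). The difference from Ctrl was -0.0078 in Ab_IR (95% CI -0.21 to 0.20) and 0.09 in L_IR (-0.11 to 0.28).

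Csf2rb2, the beta chain that serves IL-3 alone, followed the same order of groups with a smaller span. Its level was 9.66 ± 0.598 FPKM in Ctrl and 16.9 ± 0.343 in IR, with 9.60 ± 0.432 in Ab_IR and 9.90 ± 0.445 in L_IR (SD, n = 3). Every IR library lay above every other library. The log2 fold change was 0.75 in IR against Ctrl (95% CI 0.59 to 0.91, adjusted p = 0.00034), -0.75 in Ab_IR against IR and -0.71 in L_IR against IR. Neither treated group differed from Ctrl by the test, with intervals of -0.19 to 0.17 in Ab_IR and -0.14 to 0.20 in L_IR.

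The ligand-binding chains of the family did not move together. Csf2ra, the chain specific for GM-CSF, was listed at 32.7, 37.6 and 42.4 FPKM in Ctrl and at 53.1, 54.1 and 50.8 FPKM in IR (log2 fold change 0.48, 95% CI 0.24 to 0.72, adjusted p = 0.0096). In Ab_IR it was listed at 43.4, 50.3 and 46.8 FPKM and in L_IR at 45.6, 47.0 and 46.2 FPKM, between Ctrl and IR. Both treated groups were below IR, with log2 fold changes of -0.17 (adjusted p = 0.0334) and -0.18 (adjusted p = 0.00155). With the listing of Nppa as a term they were 0.11 and 0.10, and the former did not pass the test either without IR replicate 1 or 2 or Ab_IR replicate 1 or 3 (adjusted p up to 0.105) or with no filter (0.0728). With all 12 libraries in a fit, neither passed (adjusted p = 0.117 and 0.102). Csf2ra was 0.31 above Ctrl in Ab_IR and 0.30 in L_IR, which did not pass the test (adjusted p = 0.196 and 0.124) but did with all 12 libraries in a fit (0.0294 and 0.0284).

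Il3ra, the chain specific for IL-3, went the other way. Its values were 7.68, 8.16 and 9.11 FPKM in Ctrl and 5.83, 5.58 and 5.62 in IR, with 11.0, 12.8 and 10.9 in Ab_IR and 8.62, 9.20 and 8.62 in L_IR. IR held the lowest 3 libraries and Ab_IR the highest 3. The log2 fold change was -0.48 in IR against Ctrl (95% CI -0.66 to -0.29, adjusted p = 0.0037), 0.91 in Ab_IR against IR (adjusted p = 1.6e-05) and 0.56 in L_IR against IR (adjusted p = 2.29e-05). Ab_IR was above L_IR by 0.35 (95% CI 0.20 to 0.51, adjusted p = 0.00571), or by 0.22 without immunoglobulin genes. Il3ra in Ab_IR was 0.43 above Ctrl without passing the test over all genes (adjusted p = 0.089), and passed it with all 12 libraries in a fit (adjusted p = 0.0038). Il3ra shares exon bases with Gm48860 on the opposite strand, as Il6ra does with Gm42809, and whether reads were counted by strand is not given in the sources used here.

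The balance of these chains therefore differed between groups. The FPKM ratio of Csf2rb to Csf2rb2 was 2.31 to 2.70 in Ctrl and 4.39 to 4.55 in IR, with 2.43 to 2.54 in Ab_IR and 2.48 to 2.71 in L_IR. The ratio of Csf2ra to Csf2rb was 1.40 to 1.71 in Ctrl and 0.673 to 0.717 in IR, with 1.89 to 2.05 in Ab_IR and 1.78 to 1.87 in L_IR. In IR the shared chain was thus listed above the GM-CSF chain, and in the other 9 libraries below it. Where such a ratio stands against 1 depends on the gene lengths used, which are not given. The ratio of Csf2ra to Il3ra was 4.26 to 4.66 in Ctrl and 9.03 to 9.69 in IR, with 3.93 to 4.29 in Ab_IR and 5.11 to 5.36 in L_IR. For each of these ratios IR did not overlap with any other group, and the two-sided exact permutation test gave p = 0.1, the smallest that 3 against 3 libraries can reach. Over the 24 ratio tests the adjusted p was 0.126.

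**Figure D2:**
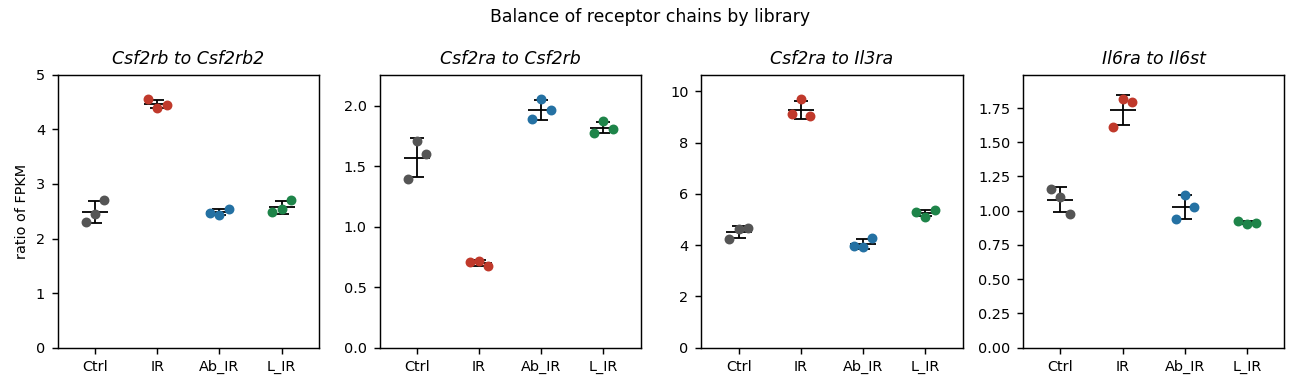
Ratio of FPKM between receptor chains (vertical axes from 0) in the 4 groups, with 1 point per library and the mean and SD of 3 libraries as bars. The Csf2rb to Csf2rb2, Csf2ra to Il3ra and Il6ra to Il6st ratios are highest in the 3 IR libraries, and the Csf2ra to Csf2rb ratio is below 1 in IR and above 1 elsewhere.

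Csf3r, the G-CSF receptor of neutrophils and their progenitors, was listed at 59.6, 45.2 and 53.0 FPKM in Ctrl and at 100.1, 95.6 and 95.1 FPKM in IR. Its levels were 42.0, 42.0 and 41.7 FPKM in Ab_IR and 44.2, 42.1 and 42.2 FPKM in L_IR. All 6 libraries of both treated groups lay below all 3 Ctrl libraries, and the IR libraries lay above all others. The mean was 1.84-fold higher in IR than in Ctrl (log2 fold change 0.88, 95% CI 0.62 to 1.13, adjusted p = 0.00115). It fell by 1.19 on the log2 scale in Ab_IR against IR (adjusted p = 2.52e-07) and by 1.16 in L_IR against IR (adjusted p = 3.4e-07). The values below Ctrl, -0.31 in Ab_IR and -0.28 in L_IR, did not pass the test (adjusted p = 0.185 and 0.164) but did with all 12 libraries in a fit (0.0257 and 0.0304). Of the 12 neutrophil markers, 6 rose and 1 fell in IR against Ctrl (17.5% and 25.5% of all genes). The rise of their sum lay mainly in S100a8 (578 to 1701 FPKM) and S100a9 (1472 to 3765 FPKM), while Mpo (3143 and 3179 FPKM) did not pass the test and Retnlg fell from 138.7 to 53.0 FPKM. In Ab_IR against L_IR, 11 of the 12 were higher (18.2% of all genes), and Csf3r was at -0.03 (95% CI -0.11 to 0.05). The part of neutrophil RNA in the Csf3r result was not tested.

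Of the chains of the IL-6 receptor, Il6ra, which binds the ligand, ranged from 5.83 to 7.58 FPKM over all 12 libraries, with 6.85 ± 0.640 in Ctrl and 7.10 ± 0.0115 in IR, with 6.37 ± 0.495 in Ab_IR and 7.42 ± 0.108 in L_IR (SD, n = 3). It did not pass the test in IR against Ctrl (0.05, 95% CI -0.14 to 0.23, adjusted p = 0.647), in Ab_IR against IR (-0.14, adjusted p = 0.0627) or in L_IR against IR (0.06, adjusted p = 0.153). In Ab_IR against IR it did pass with quantile normalization (-0.22, adjusted p = 0.0132), median ratio scaling (-0.20, 0.0209), without immunoglobulin genes (-0.27, 0.0042), with the listing of Nppa as a term (-0.34, 0.0072) and without Ab_IR replicate 2 (adjusted p = 0.029). Il6ra was lower in Ab_IR than in L_IR by 0.19 (adjusted p = 0.0323), a result lost on leaving out any 1 library other than Ab_IR replicate 2 (adjusted p up to 0.0926), with no filter (0.0781) and with all 12 libraries in a fit (0.0643).

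Il6st, the gp130 chain shared by IL-6, IL-11, LIF and oncostatin M, was listed at 6.56, 5.80 and 6.71 FPKM in Ctrl and at 4.41, 3.91 and 3.96 FPKM in IR. It was listed at 6.19, 6.11 and 6.33 FPKM in Ab_IR and 8.15, 8.17 and 8.04 FPKM in L_IR. IR held the lowest 3 libraries and L_IR the highest 3, with Ab_IR inside the range of Ctrl. The log2 fold change was -0.53 in IR against Ctrl (95% CI -0.73 to -0.33, adjusted p = 0.00311), 0.50 in Ab_IR against IR (adjusted p = 0.00011) and 0.84 in L_IR against IR (adjusted p = 7.39e-06). Il6st was lower in Ab_IR than in L_IR by 0.34 (adjusted p = 0.000731). Its level in L_IR was also above Ctrl, by 0.31 (95% CI 0.14 to 0.49, adjusted p = 0.048), a result lost on leaving out any 1 library other than Ctrl replicate 1 (adjusted p up to 0.205), with no filter (0.0927), without immunoglobulin genes (0.0647) and without trend (0.0534). The ratio of Il6ra to Il6st was 0.978 to 1.16 in Ctrl and 1.61 to 1.81 in IR, with 0.942 to 1.11 in Ab_IR and 0.905 to 0.925 in L_IR.

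Il1rl1, the IL-33 receptor, showed the deepest fall of the 10 in IR against Ctrl. Its values were 5.28, 4.95 and 4.49 FPKM in Ctrl and 1.51, 1.41 and 1.48 FPKM in IR. Its levels were 4.84, 4.34 and 3.92 FPKM in Ab_IR and 3.70, 3.72 and 3.86 FPKM in L_IR. IR lay below all other libraries, Ab_IR overlapped with Ctrl, and L_IR lay below both. The mean was 3.35-fold lower in IR than in Ctrl (log2 fold change -1.26, 95% CI -1.45 to -1.06, adjusted p = 1.02e-04). Il1rl1 rose by 1.12 on the log2 scale in Ab_IR against IR (adjusted p = 9.72e-06) and by 0.95 in L_IR against IR (adjusted p = 3.58e-06), the latter short of the fold threshold. Ab_IR and L_IR differed by 0.17 (95% CI 0.01 to 0.33), which did not pass the test (adjusted p = 0.0888) but did with quantile normalization (0.0492) and without Ab_IR replicate 3 (0.0309).

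Markers of cells known for IL-33 receptors were present in the same libraries. The sum of 8 mast cell and basophil markers (such as Mcpt8 and Cpa3) was 616.7 to 695.5 FPKM in Ctrl and 228.0 to 235.6 in IR, with 809.8 to 863.0 in Ab_IR and 516.3 to 539.1 in L_IR, with 7 of the 8 at 1 FPKM or more in every group. The sum of 7 eosinophil markers (such as Epx and Prg2) was 4686 to 6208, 396.3 to 407.4, 6684 to 6795 and 2829 to 2861 FPKM. Both sums were lowest in IR, as was Il1rl1, and highest in Ab_IR, as was Il3ra. In IR against Ctrl all 7 tested markers of each list fell (25.5% of all genes did). Such falls were not particular to these cells. All 7 erythroid, 5 megakaryocyte and platelet and 4 dendritic cell markers tested fell too. The sum of every cell type checked except neutrophils and plasma cells was lowest in IR. In Ab_IR against Ctrl, 0 of the 7 mast cell and basophil and 0 of the 7 eosinophil markers passed the test (2.1% of all genes). Their medians were 0.09 and 0.14 on the log2 scale. In L_IR against Ctrl, 1 mast cell and basophil marker rose and 1 fell, and 0 eosinophil markers rose and 6 fell. Of all genes, 4.76% rose and 4.08% fell there. The medians of the lists were -0.33 and -0.80. The part of mast cell, basophil and eosinophil RNA in the results of Il1rl1, of Il3ra above and of Il5ra below was not tested.

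Il7r, the IL-7 receptor of lymphoid progenitors and T cells, was the lowest of the 10, with 0.66, 1.51 and 1.29 FPKM in Ctrl and 0.87, 1.33 and 1.25 FPKM in IR. It was listed at 1.58, 1.37 and 1.38 FPKM in Ab_IR and 1.99, 2.09 and 1.84 FPKM in L_IR. Ctrl and IR overlapped (log2 fold change 0.013, 95% CI -0.42 to 0.45, adjusted p = 0.961), and L_IR held the highest 3 libraries. Il7r was higher in L_IR than in IR by 0.47 (95% CI 0.25 to 0.69, adjusted p = 0.00343), a value that ran from 0.25 with quantile normalization to 1.004 with the listing of Nppa as a term and passed the test in each alternative. It was lower in Ab_IR than in L_IR by 0.28 (adjusted p = 0.0136), a result lost without L_IR replicate 2 (0.0501), with no filter (0.0515) and with all 12 libraries in a fit (0.195). The difference of L_IR from Ctrl, 0.49, did not pass the test (adjusted p = 0.132) but did with all 12 libraries in a fit (0.0334) and without Ctrl replicate 1 (0.0444). The sum of 8 T cell and innate lymphoid cell markers was also highest in L_IR, at 27.1 to 27.6 FPKM against 16.9 to 18.2 in Ctrl, 11.9 to 13.0 in IR and 18.5 to 20.9 in Ab_IR. That of 8 B cell markers was 44.9 to 46.4 FPKM in L_IR, 28.3 to 32.6 in Ctrl, 24.4 to 24.9 in IR and 42.2 to 42.4 in Ab_IR. Cd79a and Cd79b made up most of the latter sum (23.1 and 19.4 FPKM in L_IR), whereas Pax5 (0.46 FPKM in Ctrl, 0.12 in L_IR), Rag1 (0.26 and 0.043) and Vpreb1 (0.88 and 0.51) had lower means in L_IR than in Ctrl and lay below the filter in that comparison. Their part in the Il7r result was not tested.

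Ifngr1, the ligand-binding chain of the interferon gamma receptor, was abundant and varied least of the 10. Its values were 86.5, 83.0 and 84.3 FPKM in Ctrl and 73.6, 74.4 and 74.1 in IR, with 77.9, 76.3 and 74.1 in Ab_IR and 76.3, 77.0 and 77.8 in L_IR. Ctrl lay above all irradiated libraries. The fall in IR against Ctrl, -0.19 on the log2 scale (95% CI -0.32 to -0.06, adjusted p = 0.029), was lost without any 1 of the IR libraries (adjusted p up to 0.128), with median ratio scaling (-0.12, adjusted p = 0.116) and without immunoglobulin genes (-0.11, adjusted p = 0.312). The rise in L_IR against IR was 0.06 (adjusted p = 0.0434) and was lost on leaving out any 1 of the 6 libraries (adjusted p up to 0.116), without immunoglobulin genes (0.0815), without trend (0.121), with all 12 libraries in a fit (0.261) and with the listing of Nppa as a term (0.0092, adjusted p = 0.895).

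Against IR, 7 passed the test in Ab_IR (3 higher, 4 lower) and 9 in L_IR (5 higher, 4 lower), beside 68.7% (39.4% higher, 29.4% lower) and 66.8% (40.8% higher, 26% lower) of all genes. Of these, Csf2rb, Csf3r and Il1rl1 were called in Ab_IR and Csf2rb and Csf3r in L_IR, beside 7.57% and 6.22% of all genes. So 7 of the 10 in Ab_IR is near the share of all genes. The split of all genes into higher and lower depended on scaling. In Ab_IR against IR it was 28.3% and 39.3% without immunoglobulin genes. In L_IR against IR it was 30.9% and 32.8% with quantile normalization, but 39.5% and 26.7% without immunoglobulin genes. The median log2 fold change of the 10 was 0.03 in IR against Ctrl, -0.05 in Ab_IR against IR and 0.06 in L_IR against IR, and that of all genes tested -0.05, 0.06 and 0.07. Since both treated groups are compared with the same IR libraries, these comparisons are not independent.

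**Figure D3:**
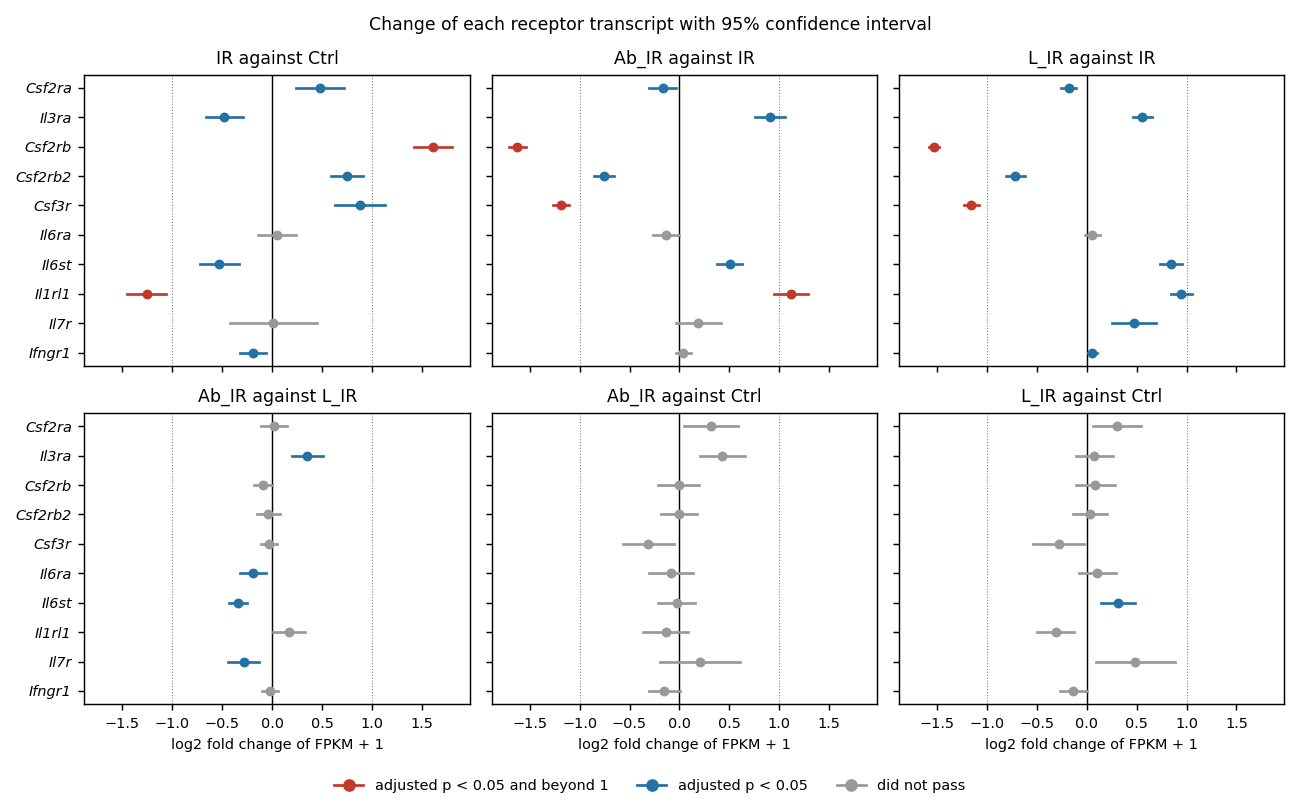
Log2 fold change of FPKM + 1 (horizontal axis) of each receptor gene in the 6 comparisons, with lines for the 95% confidence interval, dotted lines at a change of 1, red for called genes, blue for those passing the adjusted p alone and grey for the others. Csf2rb stands at 1.62 in IR against Ctrl and at -1.62 and -1.53 in Ab_IR and L_IR against IR, and no gene is red in the lower row.

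Between both treated groups, 0 of the 10 were called by limma (0.533% of all genes were), and 4 passed the adjusted p (38% of all genes, 18.2% higher and 19.8% lower in Ab_IR), with 6 at an unadjusted p under 0.05. Il3ra was higher in Ab_IR, and Il6st, Il7r and Il6ra were higher in L_IR. Immunoglobulin transcripts held 13.5% to 14.3% of all FPKM in Ab_IR and 21.9% to 22.6% in L_IR, and taking them out before scaling moved the median of all genes from 0.0063 to -0.11. On that scale 8 of the 10 passed, 1 higher and 7 lower in Ab_IR, beside 40.3% of all genes, 6.55% higher and 33.8% lower. All genes thus leaned to lower values as well, and whether the 10 did so more was not tested. Against Ctrl, 0 of the 10 were called in either group, beside 0.923% of all genes in Ab_IR and 2.65% in L_IR. In Ab_IR 0 passed the adjusted p (2.1% of all genes) and 3 had an unadjusted p under 0.05, and in L_IR 1 passed (8.84% of all genes) and 5 had an unadjusted p under 0.05. A value that misses the threshold does not show a return to Ctrl. The 95% intervals of the difference from Ctrl reached from -0.57 (Csf3r) to 0.66 (Il3ra) in Ab_IR and from -0.54 (Csf3r) to 0.88 (Il7r) in L_IR over the 10.

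Of the partner chains of these receptors, Il5ra was called. Il5ra, the chain specific for IL-5, was listed at 3.19, 1.95 and 1.96 FPKM in Ctrl and 0.30, 0.26 and 0.51 in IR, with 2.54, 2.25 and 2.46 in Ab_IR and 1.51, 1.87 and 1.81 in L_IR. IR lay below every other library. Its log2 fold change was -1.30 in IR against Ctrl (adjusted p = 0.00154), 1.34 in Ab_IR against IR and 1.01 in L_IR against IR, each called. Since all IR values lay under 1 FPKM, it passed the filter in these comparisons only through the group where it was higher. The calls of Il5ra therefore add no support beyond the values listed. Il1rap, the co-receptor that Il1rl1 needs to signal, rose in IR against Ctrl by 0.53 (2.30 to 3.70 FPKM, adjusted p = 0.0289), opposite to Il1rl1. Il2rg, the common gamma chain that pairs with Il7r, rose by 0.36 (20.7 to 26.8 FPKM), and Ifngr2, the signalling partner of Ifngr1, rose by 0.44 (6.33 to 8.90 FPKM, adjusted p = 0.0289). The rises of Il1rap and Ifngr2 were lost without any 1 of the IR libraries (adjusted p up to 0.0914 and 0.104) and with no filter (0.078 and 0.067). Crlf2 (12.1 and 13.4 FPKM in Ctrl and IR) and Il11ra1 (3.93 and 4.37 FPKM) did not pass the test. Lifr (0.34 to 0.92 FPKM) and Osmr (0.02 to 0.13 FPKM), which pair with gp130, were below the filter on low values. In all, 3 of the 6 partner chains tested rose and 1, Il5ra, fell in IR against Ctrl, beside 17.5% and 25.5% of all genes.

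Of 12 ligand genes, 4 passed the filter in IR against Ctrl. Il6 was listed at 6.92, 6.47 and 4.34 FPKM in Ctrl and 0.86, 1.05 and 1.12 in IR, with 6.27, 5.63 and 5.86 in Ab_IR and 4.60, 5.33 and 5.07 in L_IR. The log2 fold change of Il6 was -1.76 in IR against Ctrl (adjusted p = 0.000396), 1.78 in Ab_IR against IR and 1.58 in L_IR against IR. Osm, which encodes oncostatin M, fell from 46.1 to 21.9 FPKM in IR (-1.04, adjusted p = 0.000212) and was at 59.8 FPKM in Ab_IR and 43.8 in L_IR. Both ligands act through gp130. Lif, another ligand of gp130, went the other way at a level near or below the filter, with 0.41 to 0.44 FPKM in Ctrl and 0.85 to 1.18 in IR. Csf2, which encodes GM-CSF, was at 0 to 0.10 FPKM in Ctrl and 0.32 to 0.70 in IR, and neither was tested in IR against Ctrl. Csf3, Il3, Il33, Il7 and Il11 were at 0.13 FPKM or below in every library.

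Of 25 other cytokine receptor genes tested in IR against Ctrl, 7 rose and 8 fell by the adjusted p (17.5% and 25.5% of all genes), with 2 and 5 of them called (7.6% of all genes in either direction). Il1r2, the decoy receptor for IL-1, showed the largest change, from 2.53, 2.74 and 3.50 FPKM in Ctrl to 43.6, 41.5 and 43.3 FPKM in IR (log2 fold change 3.49, adjusted p = 7.26e-06). Its log2 fold change against IR was -3.67 in Ab_IR and -4.10 in L_IR. The neutrophil markers Mmp8 (9.95 FPKM in Ctrl and 36.9 in IR, with 4.38 in Ab_IR and 2.13 in L_IR) and Cxcr2 (4.93 and 18.01, with 3.43 and 1.94) had the same order of groups. Others of the 12 did not, such as Retnlg (138.7 and 53.0, with 193.7 and 93.2) and Camp (264.0 and 262.2, with 374.5 and 102.5), and their part in the Il1r2 result was not tested. Il4ra, the IL-4 receptor, rose from 9.20 to 34.2 FPKM in IR (1.79) and was at 9.85 FPKM in Ab_IR and 10.4 in L_IR. Epor, the erythropoietin receptor, fell from 20.9 to 3.77 FPKM (-2.19), with 24.6 FPKM in Ab_IR and 17.8 in L_IR. Of 9 genes of the gate, 3 rose and 5 fell in IR against Ctrl, beside 17.5% and 25.5% of all genes. Flt3 and Cd34, whose products are to be absent, fell from 10.5 to 1.08 FPKM (-2.46) and from 20.01 to 3.78 FPKM (-2.13), and Kit, which is to be present, fell from 23.5 to 6.87 FPKM (-1.63). Ly6a (Sca-1), also to be present, rose from 35.1 to 58.6 FPKM, and the lineage gene Itgam, to be absent, from 32.5 to 52.2 FPKM. The sum of 7 erythroid markers, beside Epor, was 2941 to 3455 FPKM in Ctrl and 458.8 to 463.1 in IR, with 2990 to 3124 in Ab_IR and 1445 to 1489 in L_IR, and its part in the Epor result was not tested.

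Of 19 genes of Janus kinase, STAT and adaptor signalling, 6 rose and 4 fell in IR against Ctrl (17.5% and 25.5% of all genes), and only Myd88, the adaptor of Il1rl1 and other IL-1 family receptors, was called (23.6 to 53.4 FPKM, log2 fold change 1.14, adjusted p = 6.59e-05). In Ab_IR against IR, 4 rose and 13 fell (39.4% and 29.4% of all genes), with Stat3 called (25.6 to 12.3 FPKM, -1.01, adjusted p = 1.21e-06). The shares of all genes turned to 28.3% and 39.3% without immunoglobulin genes and to 32.0% and 36.4% with quantile normalization. The list was not counted on those scales. In L_IR against IR, 5 rose and 9 fell (40.8% and 26% of all genes, or 30.9% and 32.8% with quantile normalization), with Myd88 called (-1.05). Of 13 feedback inhibitors tested, 4 rose and 2 fell in IR against Ctrl, near the 43.1% of all genes that passed, 1 rose and 6 fell in Ab_IR against IR (68.7% of all genes passed) and 3 rose and 5 fell in L_IR against IR (66.8%). In Ab_IR against IR the ubiquitin ligase gene Cbl was called (29.7 to 13.0 FPKM, -1.13). Of 15 genes that cytokines are known to induce, 5 rose and 5 fell in IR against Ctrl (17.5% and 25.5% of all genes). Bcl3, an NF-kB cofactor gene, rose from 5.55 to 15.4 FPKM (1.33) and fell by 1.24 in Ab_IR and by 1.43 in L_IR against IR, and Egr1, an immediate early gene, fell from 51.3 to 23.4 FPKM (-1.10).

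**Figure D4:**
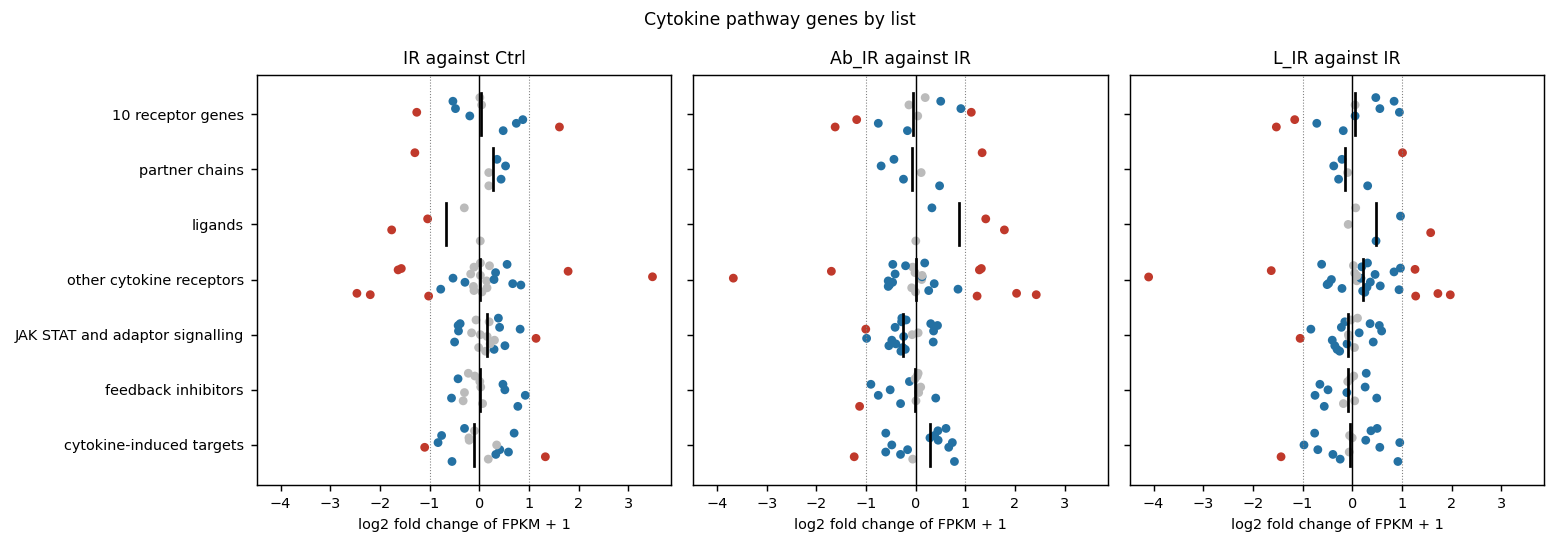
Log2 fold change of FPKM + 1 (horizontal axis) of every tested gene of the 10 receptors and of 6 lists of other cytokine pathway genes, with 1 point per gene, black bars for list medians, red for called genes, blue for those passing the adjusted p alone and grey for the others. Il1r2 stands farthest out, at 3.49 in IR against Ctrl and at -3.67 and -4.10 in Ab_IR and L_IR against IR.

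The genes whose profile over the 12 libraries was most like that of a receptor were found by the root mean square difference of log2(FPKM + 1) after centring each gene, among 6958 genes of at least 5 FPKM on average (6959 for Il1rl1). For Csf2rb they were Il4ra (0.0834), G6pdx (0.104) and Atp11a (0.124). For Csf3r they were Spata13 (0.0522), Plin3 (0.0741) and Cpne3 (0.0999). For Il1rl1 they were Clk1 (0.0767), Tap1 (0.0808) and Tmem64 (0.0850).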

How the data were processed

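Transcript levels in HSC-gated bone marrow cells were analysed in 12 libraries, with 3 in each of the 4 groups that their titles name. Per the labels, RNA was taken up with a micro-scale column kit and made into stranded mRNA libraries. The submitters' processing notes name fastp, HISAT2 and StringTie with builds GRCm38 and mm10, whereas the study's methods name RSEM and DESeq2, so which tool made the values is unsettled. The annotation is not given in the sources used here. The unit of the deposited values, 1 file per library, is not named in the files and was read as FPKM, since values times exon length in kb summed to 913838 to 945611 per library over the 96.7% of gene names matched to GENCODE M21.

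FPKM are not counts, so limma 3.58.1 (R 4.3.3, lmFit and eBayes with trend, two-sided) was fitted to log2(FPKM + 1) of the 6 libraries compared, over genes reaching 1 FPKM in 3 or more of them (12067 to 12251 genes). A log2 fold change on this scale understates the change of low genes. P-values were Benjamini-Hochberg adjusted over all genes tested, and a call needed an adjusted p under 0.05 with a log2 fold change beyond 1 in either direction. Ratios were tested with exact permutation tests. Simulated data with 200 genes changed by 1.5 gave a recovery of 91% in IR against Ctrl (12072 genes). Both groups were drawn with the same SD per gene and no other gene was changed. The figure therefore does not cover the unequal spread of the Ctrl and IR libraries.

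All 10 receptors and the partner chains were named, up to 4 called genes of each other pathway list, and the 3 genes most alike to each receptor spanning over 1 between groups. Markers and ligands outside this rule are named beside their lists, after their values were seen. The members and lists were chosen with earlier results of these data known. Alternatives are given in the closing section, and for pathway genes other than the 10 they were added after seeing the data. Promoter sequences are from RefSeq. The study's methods name no pairing of libraries by replicate number, and none was used in the main fits. Python 3.11.15 and matplotlib 3.10.9 were used.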

Additional observations from a re-analysis of the deposited data

How the results depend on the processing

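The number of the 10 receptors called differed from the value given in 4 of 86 alternative fits and by no more than 1.5 times in any. It was 4 (against 3) with a pseudocount of 0.1 and 2 with quantile normalization in Ab_IR against IR, and 3 (against 2) with a pseudocount of 0.1 and with the listing of Nppa as a term in L_IR against IR. The number passing the adjusted p moved further in comparisons of small differences. In Ab_IR against L_IR it was 4, and 2 with no filter (13.6% of all genes), 2 with all 12 libraries in a fit (19.2%), 8 without immunoglobulin genes (40.3%) and 2 to 4 without 1 library (2 without L_IR replicate 2). In Ab_IR against Ctrl it was 0, and 4 with all 12 libraries (Il3ra, Csf2ra, Csf3r and Ifngr1), where 18.3% of all genes passed against 2.1%. In L_IR against Ctrl it was 1, and 0 with no filter, 0 without immunoglobulin genes, 0 without trend, 6 with all 12 libraries (Il6st, Csf2ra, Csf3r, Il1rl1, Il7r and Ifngr1, beside 21.3% of all genes against 8.84%), and 0 to 3 without 1 library (3 without Ctrl replicate 1, beside 20.6% of all genes). The causes were not tested.

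With the replicate number as a block, 0 passed in L_IR against Ctrl (Il6st, adjusted p = 0.142), Ifngr1 was lost in IR against Ctrl (adjusted p = 0.116) and in L_IR against IR (0.0878), and Il6ra was lost in Ab_IR against L_IR (0.0707). Correlations of same-numbered libraries' deviations ran from -0.269 to 0.208. With 3 libraries per group, such values cannot exclude a day or batch shared by number. The block changed no other result of the 10.

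Changes of sign occurred in values near 0 and, with the Nppa term, in those of Csf2ra against IR that had passed the test. In Ab_IR against IR, Ifngr1 was -0.026 with median ratio scaling, -0.11 without immunoglobulin genes and -0.00762 with the Nppa term, and Csf2ra was 0.11 with that term (against -0.17), with which Il7r passed (0.72). In L_IR against IR, Il6ra was -0.035 with quantile normalization, -0.016 with median ratio scaling and -0.14 with the Nppa term, Ifngr1 was -0.025 with median ratio scaling, and Csf2ra was 0.10 with the Nppa term (against -0.18). In Ab_IR against L_IR, Csf2ra was -0.049 with quantile normalization, -0.13 without immunoglobulin genes and -0.037 to 0.068 without 1 library, and Ifngr1 was -0.033 to 0.0020 without 1 library. In IR against Ctrl, Il7r was -0.16 to 0.13 without 1 library. In Ab_IR against Ctrl, Csf2rb was 0.0071 and Csf2rb2 0.0067 with median ratio scaling, and without 1 library Csf2rb was -0.066 to 0.064, Csf2rb2 -0.053 to 0.026 and Il6st -0.083 to 0.0079. In L_IR against Ctrl, Csf2rb2 was -0.014 to 0.066 without 1 library. Over all alternatives, single receptors kept direction and side of the threshold in 766 values, gained the threshold in 24, lost it in 44 and changed sign in 26. The other pathway genes so tested kept both in 574 values, lost the threshold in 19 (Il1rap, Ifngr2, Jak2 and Socs3) and changed sign in 1, Jak2 in Ab_IR against IR with the Nppa term (-0.0069). The median of all genes moved by over 0.1 without immunoglobulin genes in Ab_IR against IR (0.06 to -0.06) and in Ab_IR against L_IR.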

Other observations

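Signalling genes shared by these receptors did not all move in the same direction. The genes named here were chosen after their values were known. Stat5a and Stat5b, which act downstream of the shared beta chain, and Jak2, the kinase bound to it, were lower in IR than in Ctrl, with log2 fold changes of -0.42 (10.7 to 7.67 FPKM, adjusted p = 0.00396), -0.38 (22.5 to 17.0 FPKM, adjusted p = 0.00766) and -0.50 (24.9 to 17.2 FPKM, adjusted p = 0.0141) by limma. Stat3, which acts downstream of gp130 and Csf3r, was higher by 0.82 (14.1 to 25.6 FPKM, adjusted p = 0.000787), and its target Socs3, a feedback inhibitor, by 0.48 (7.45 to 10.6 FPKM, adjusted p = 0.029). In Ab_IR against IR, a comparison that shares the IR libraries and so is not independent, Stat5a was at 0.44, Stat5b at 0.30, Jak2 at 0.35, Stat3 at -1.01 and Socs3 at -0.90, each at an adjusted p under 0.05, and in L_IR against IR they were 0.54, 0.36, 0.42, -0.83 and -0.65, again each under 0.05, a test that 68.7% and 66.8% of all genes passed. In IR against Ctrl, Jak2 was lost without any 1 of the IR libraries (adjusted p up to 0.0569) and without immunoglobulin genes (0.0604), and Socs3 without any 1 of the IR libraries (up to 0.0929) or Ctrl replicate 2 (0.0633) and with no filter (0.0673). With the listing of Nppa as a term, Jak2 was -0.0069 in Ab_IR against IR (adjusted p = 0.95) and 0.063 in L_IR against IR (0.571), and Socs3 in L_IR against IR did not pass (-0.23, 0.209). Pim1, a gene that cytokines are known to induce, rose in IR against Ctrl by 0.70 (62.6 to 101.5 FPKM, adjusted p = 0.00617). In that comparison Stat5a and Stat5b fell and Stat3 rose. Jak1, a kinase that gp130 uses, was at 0.22 (28.6 to 33.4 FPKM, adjusted p = 0.0575), unlike Jak2.

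Il2rb, the beta chain of the IL-2 and IL-15 receptors, was the only other cytokine receptor of the list called in a treated group against Ctrl. That was 1 of 26 tested in L_IR and 0 of 25 in Ab_IR, beside 2.65% and 0.923% of all genes. Il2rb was at 7.04 FPKM in Ctrl and 9.05 in IR, with 8.94 in Ab_IR and 17.0 in L_IR. Its log2 fold change by limma was 1.17 in L_IR against Ctrl (adjusted p = 0.00114). Il2rb was lower in Ab_IR than in L_IR by 0.86 (adjusted p = 2.02e-05). The sum of T cell and innate lymphoid cell markers was also highest in L_IR, and its part in this result was not tested.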
